A study of Mus musculus with 5 samples.

Results

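The genes described here are 8 markers of the mesothelium, Upk3b, Upk1b, Msln, Lrrn4, Gpm6a, Wt1, Bnc1 and Cbr2, among 19938 genes measured on 5 mouse microarrays. They are known mesothelial genes and were picked because some of them stood out on the arrays of 2i mouse embryonic fibroblasts (MEFs). Each of the 8 was measured by exactly 1 probe set that carries no other gene. The series held 1 array per group. The groups were 2i and S embryonic stem cells (ESCs), 2i MEFs of the kinds named 2n and 4n, and control MEFs. All cells were F1 of 129X1/SvJ and MSM/Ms mice, so this background is shared by the controls, and the title of the series concerns female ESCs. What S, 2n and 4n mean is not stated in the labels, so they serve as names. As background, 2i is the common name of an ESC medium that blocks the kinases MEK and GSK3. The labels give no passage, embryo stage, sorting step or dissection of the MEFs. Sample titles carry the number 15 for 2i ESCs as well as 2n 2i MEFs, and 36 (S ESCs), 2 (4n 2i MEFs) and 4 (control MEFs) for the rest. The titles of the 2n and 4n 2i MEFs each end in a further number, which also differs between them.

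The mesothelium is the single layer of flat cells that lines the pleural, pericardial and peritoneal cavities and covers the organs in them. It is of mesodermal origin and carries traits of both epithelium and mesenchyme. Its fetal form, which includes the epicardium, gives rise to fibroblasts and smooth muscle of the underlying organs. The 8 genes encode the membrane proteins Upk3b, Upk1b, Msln, Lrrn4 and Gpm6a, the zinc finger transcription factors Wt1 and Bnc1, and the enzyme Cbr2. None of them is restricted to the mesothelium. The uroplakins are also made in urothelium, Gpm6a in neurons, Wt1 in podocytes and gonads, Bnc1 in basal keratinocytes and Cbr2 in airway cells.

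Values are linear intensities as deposited, in arbitrary units, and differences and folds are of log2(intensity + 1). Since no group had a second array, there was no test of a single pair, and genes are called higher or lower from a difference of 2-fold or more. The floor of an array is the median over its probe sets with a gene name, 217.9 to 240.1 units over the 5 arrays, and a gene was compared when the brighter of the arrays was at or above it. A value below the floor holds an unknown part of background, and a fold against it depends on that background. Lists of pluripotency and fibroblast markers differed between the ESC and the MEF arrays. All 7 pluripotency genes of a marker list were at or above the floor on each ESC array, and 0 of 7 on any MEF array. Of 10 fibroblast markers, 10 reached the floor on each 2i MEF array and 9 on the control MEF array. On the 2i ESC array 4 did and on the S ESC array 5. Their summed intensities were 2243 units on the 2i ESC and 3197 on the S ESC array, against 54764 to 74360 on the MEF arrays. The deposited values of many probe sets are identical on different MEF arrays (45.4% of probe sets for 2n and control MEFs), but no member had identical values on any pair of arrays. The MEF samples are bulk RNA, in which fewer cells of a type and less RNA per cell cannot be told apart.

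Most of the 8 genes were bright on the 2i MEF arrays and dim on the control MEF array. On the 4n 2i MEF array 8 of 8 reached the floor, on the 2n 2i MEF array 7, and on the control MEF array 2, Upk1b and Bnc1. On each ESC array 2 did, Msln and Lrrn4 on the 2i ESC array and Lrrn4 and Wt1 on the S ESC array. Since the genes were chosen for their levels on the 2i MEF arrays, the differences between these and the control MEF array are given as a description.

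**Figure D1:**
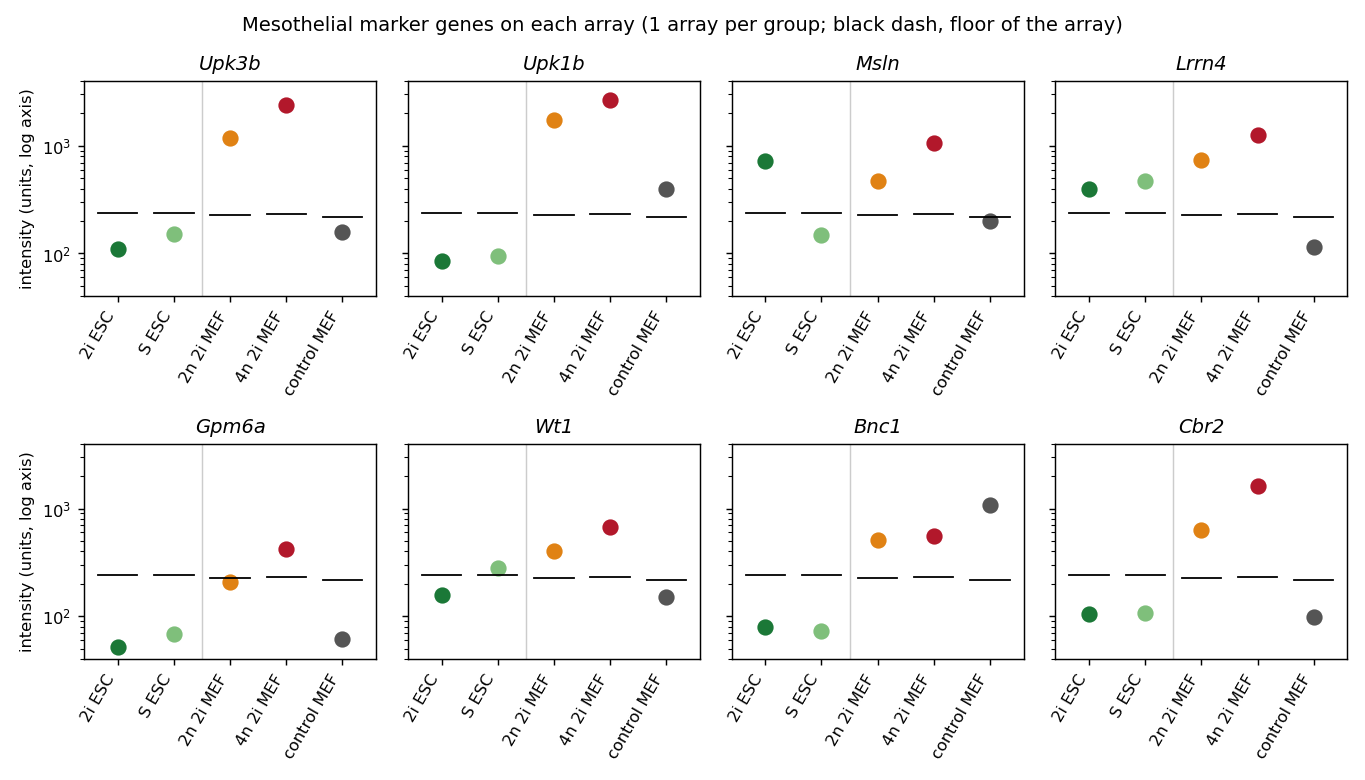
Intensity (log axis) of the 8 genes on the 5 arrays, 1 point per array, with the floor of each array as a black dash. For 7 genes the points of the 2n and 4n 2i MEF arrays lie above the control MEF point, and for Bnc1 the control MEF point, at 1083 units, is the highest of the 5.

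Among the membrane proteins, the uroplakin gene Upk3b (Entrez Gene 100647, chromosome 5) had 1195 units on the 2n 2i MEF array and 2387 on the 4n 2i MEF array, against 160.0 on the control MEF array. Uroplakins are integral membrane proteins of the urothelial surface, where Upk3b pairs with Upk1b. Upk3b was thus below the floor in control MEFs and well above it on both 2i MEF arrays, 7.43-fold higher in 2n and 14.8-fold higher in 4n. It ranked as the third highest difference of 10131 genes for 2n and number 14 of 10303 for 4n. Its partner gene Upk1b (Entrez Gene 22268, chromosome 16), a tetraspanin, had 1739 units in 2n 2i MEFs and 2672 in 4n 2i MEFs, against 396.7 in control MEFs. Unlike Upk3b, it was above the floor in the control MEFs as well, and its excess was 4.38-fold in 2n and 6.72-fold in 4n.

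Lrrn4 (Entrez Gene 320974, chromosome 2), which encodes a membrane protein with leucine-rich repeats, had 740.4 units in 2n 2i MEFs and 1264 in 4n 2i MEFs, against 114.2 in control MEFs. The control array was the lowest of all 5 for this gene, and the excess was 6.43-fold in 2n and 11.0-fold in 4n. Msln (Entrez Gene 56047, chromosome 17), mesothelin, a lipid-anchored surface glycoprotein that binds the mucin Muc16, had 475.6 units in 2n 2i MEFs and 1056 in 4n 2i MEFs, against 200.9 in control MEFs. Its control value lay just below the floor, and its excess of 2.36-fold in 2n was the smallest among the genes that were higher there. Gpm6a (Entrez Gene 234267, chromosome 8), a proteolipid-family glycoprotein known from neuronal membranes, had 206.8 units in 2n 2i MEFs and 417.1 in 4n 2i MEFs, against 61.6 in control MEFs. Only its 4n value reached a floor on any of the 5 arrays, so the gene was compared in 4n (6.68-fold higher) and not in 2n.

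The transcription factors went in opposite directions. Wt1 (Entrez Gene 22431, chromosome 2), needed for development of kidney, gonads and the mesothelial lining, had 404.2 units in 2n 2i MEFs and 680.6 in 4n 2i MEFs, against 149.7 in control MEFs. It was below the floor in control MEFs and 2.69-fold higher in 2n and 4.52-fold higher in 4n. Bnc1 (Entrez Gene 12173, chromosome 7), basonuclin, a zinc finger protein of basal keratinocytes and germ cells, had 510.5 units in 2n 2i MEFs and 560.8 in 4n 2i MEFs, against 1083 in control MEFs. It was above the floor on each MEF array and was the exception to the excess of the other members, with log2 differences of -1.08 in 2n and -0.95 in 4n, the second of these within 2-fold. Cbr2 (Entrez Gene 12409, chromosome 11), a carbonyl reductase known from mouse lung, had 633.9 units in 2n 2i MEFs and 1607 in 4n 2i MEFs, against 98.6 in control MEFs. Its excess of 16.1-fold in 4n was the largest of the 8 genes in that comparison, and it was 6.38-fold higher in 2n.

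Counted together, 6 of the 7 members compared were at least 2-fold higher in 2n 2i MEFs than in control MEFs and 1 was lower, where 1.49% of 10131 genes were higher and 0.434% lower. In 4n 2i MEFs 7 of 8 were at least 2-fold higher and none lower, where 5.27% of 10303 genes were higher and 3.45% lower. The median log2 difference of the 8, with Gpm6a kept in 2n though it was below the floor, was 1.93 in 2n and 2.74 in 4n. All genes compared had medians of 0 and -0.01. These counts describe the choice of the genes, and both comparisons share the control array. At a threshold of 3-fold, 4 members remained higher in 2n (Upk3b, Upk1b, Lrrn4 and Cbr2) and 7 in 4n. With the floor at the 75th percentile, the count in 2n was 2 higher and 1 lower.

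**Figure D2:**
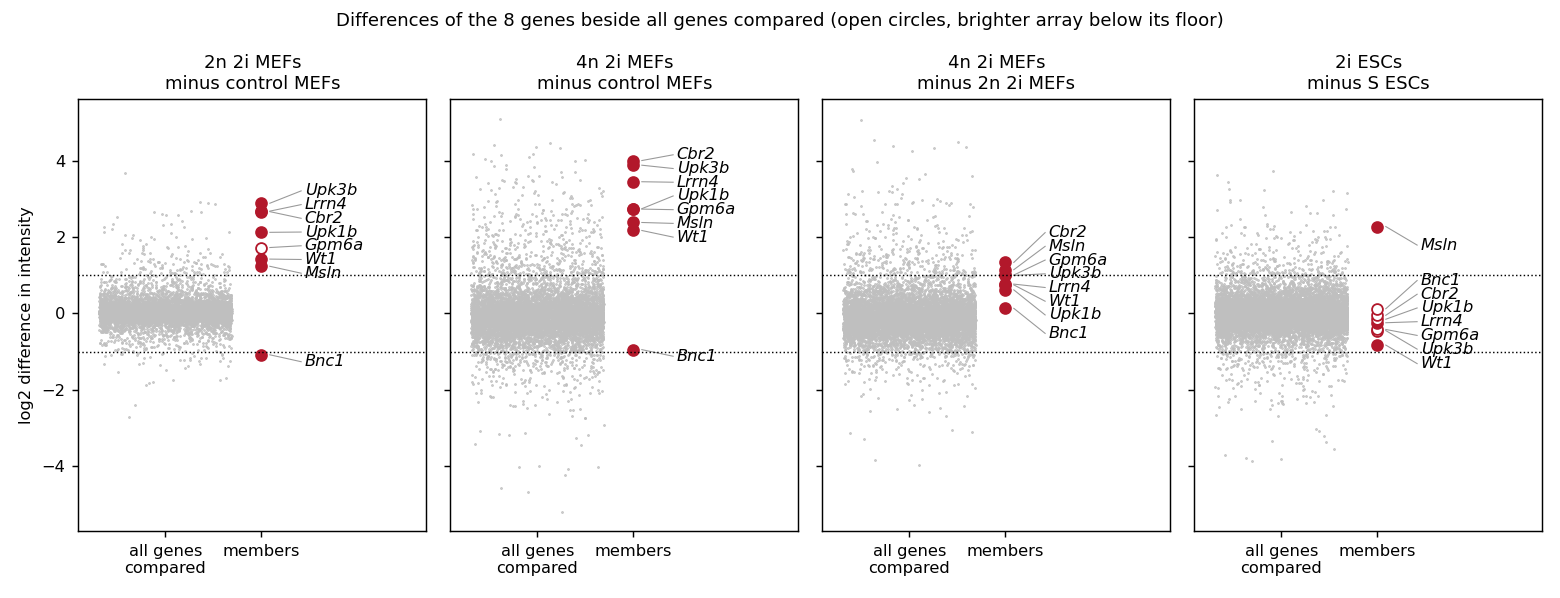
Log2 differences in intensity for 4 pairs of arrays, with all genes compared in grey and the 8 members in red (open circles, brighter array below its floor; dotted lines, 2-fold). In the first and second panels 7 members lie above the upper line and Bnc1 near the lower one, in the third all 8 lie above 0, and in the fourth only Msln lies beyond 2-fold.

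The 4n 2i MEF array had the higher value of the 2i MEF arrays for every member. The genes were chosen for their levels on these same arrays, so the counts in this comparison are a description too, and nothing is read from the shares of all genes beside them. Of the 8 genes 3 were at least 2-fold higher in 4n than in 2n and none lower, where 3.36% of 10280 genes were higher and 2.36% lower. These were Cbr2 (2.53-fold), Msln (2.22-fold) and Gpm6a (2.01-fold), and Upk3b, at 1.997-fold, lay just under the threshold. Gpm6a passed the floor through the 4n array alone. Calls this close to 2-fold changed with the processing. Quantile normalization gave a log2 difference of 0.96 for Gpm6a and 1.08 for Upk3b, and a pseudocount of 16 gave 0.96 for Gpm6a, which left 2 members beyond 2-fold. Lrrn4 had a log2 difference of 0.77, Wt1 0.75, Upk1b 0.62 and Bnc1 0.14. By any amount 8 of 8 were higher in 4n, where 33.3% of the genes compared were, and the median log2 difference of the 8 was 0.88 beside -0.04 for all genes. Since each array stands for 1 sample, how far a second pair of 4n and 2n samples would differ was not measured. The samples also differ in the numbers of their titles, and this cannot be told apart from the names 2n and 4n. At a threshold of 3-fold 0 members differed.

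Markers of other cell types also differed on the 4n array. Of 6 macrophage markers in a list, 4 were at least 2-fold higher in 4n than in 2n 2i MEFs, and Ptprc and Cd14 were below the floor on both arrays. Among all genes compared between these arrays, 3.36% were at least 2-fold higher in 4n. The list had summed intensities of 11219 units in 4n, 1154 in 2n and 1534 in control MEFs. Lyz2, lysozyme, had 5913 units in 4n 2i MEFs, against 429.0 in 2n 2i MEFs. Between the 2n 2i and control MEF arrays only 2 of the 6 macrophage markers passed the floor. Of these 0 were at least 2-fold higher in 2n, where 1.49% of 10131 genes were. Fibroblast markers summed to 74360 units in 4n, 60119 in 2n and 54764 in control MEFs. Of 10 such markers 3 were at least 2-fold higher in 4n than in control MEFs, 0 were lower and 7 lay within 2-fold. Among all genes compared, 5.27% were higher there and 3.45% lower. The median log2 difference of the fibroblast markers was 0.52. It was largest, at 3.42, for Fap, a surface protease, whose control MEF value of 80.9 units was below the floor. Of the macrophage list 4 of 6 genes reached the floor in 4n 2i MEFs, and 2 of 6 in 2n 2i and in control MEFs. Their part in the further excess of the 8 genes on the 4n array was not tested.

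Sequences just upstream of the annotated starts were read for the members that the RefSeq table of build GRCm38.p6 holds, which were Upk3b, Lrrn4, Gpm6a (2 starts), Bnc1 and Cbr2. The windows of 250 bases that end just before the start are shown for 3 membrane protein genes, Upk3b, Lrrn4 and Gpm6a (first start), and for Bnc1, the gene with the opposite difference. Those 3 are the only member windows that hold the letters marked below. The windows of Cbr2, the gene with the largest excess in 4n, and of the second Gpm6a start hold none and are not shown. Capitals mark the letters GGAATG, the core recognised by TEAD factors (partners of Yap), or its reverse complement CATTCC, and all other bases are in lower case, 5′ to 3′ on the strand of the gene. The Upk3b window is chr5:136038246-136038495 (plus strand), the Lrrn4 window chr2:132880863-132881112 (minus), the first Gpm6a window chr8:54779184-54779433 (plus) and the Bnc1 window chr7:81992300-81992549 (minus). The Lrrn4 window belongs to a start that lies inside the annotated extent of the gene.
Upk3b: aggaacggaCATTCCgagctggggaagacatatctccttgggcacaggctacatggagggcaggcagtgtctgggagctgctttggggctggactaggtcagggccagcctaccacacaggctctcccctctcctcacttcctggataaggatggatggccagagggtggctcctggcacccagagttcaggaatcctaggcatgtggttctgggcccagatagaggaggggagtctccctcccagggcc
Lrrn4: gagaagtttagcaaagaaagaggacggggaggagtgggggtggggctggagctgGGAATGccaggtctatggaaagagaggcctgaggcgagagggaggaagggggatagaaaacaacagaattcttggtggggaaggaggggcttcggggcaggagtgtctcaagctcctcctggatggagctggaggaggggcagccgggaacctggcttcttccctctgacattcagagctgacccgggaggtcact
Gpm6a: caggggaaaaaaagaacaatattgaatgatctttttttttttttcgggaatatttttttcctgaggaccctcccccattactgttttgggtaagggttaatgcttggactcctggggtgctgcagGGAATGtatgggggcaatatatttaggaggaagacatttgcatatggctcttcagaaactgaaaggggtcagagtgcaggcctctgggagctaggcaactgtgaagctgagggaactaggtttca
Bnc1: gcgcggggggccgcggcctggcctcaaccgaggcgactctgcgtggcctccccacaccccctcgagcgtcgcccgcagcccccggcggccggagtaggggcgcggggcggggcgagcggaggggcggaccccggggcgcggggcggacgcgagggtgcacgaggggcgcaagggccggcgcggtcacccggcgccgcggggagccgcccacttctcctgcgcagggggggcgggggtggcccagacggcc

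The letters GGAATG or CATTCC stood in 3 of the 6 member windows, 1 match each in Upk3b, Lrrn4 and the first Gpm6a window, and in 12.6% of all 32851 windows of this length. Other motifs were searched on both strands as well. The letters AGATAA, read by the Gata factor family, stood in 0 of the 6 windows and in 9.99% of all. The letters GCGTGGG, read by Wt1 and Egr factors, stood in 0 of the 6 and in 4.30% of all. The core promoter letters TATAAA stood in 1 of the 6 and in 12.4% of all, and CCAAT stood in 0 of the 6 and in 33.8% of all. The TATAAA match was the reverse complement in the second Gpm6a window. It began 211 bases before a start that lies inside the annotated extent of the gene. None of these motifs contains another. A match is a run of letters and was not tested as a binding site. The windows also differed in base composition, with a GC content of 33.6% to 83.6%, and in CpG dinucleotides, the sites of DNA methylation. Bnc1 had 39 in 250 bases, more than 98.4% of all windows had, while Upk3b had 2, Lrrn4 5, Cbr2 3 and Gpm6a 1 and 3, beside a median of 6 over all windows. DNA methylation itself was not measured on these arrays.

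In the ESCs the members lay at or near the lower end of their range. The exceptions were Msln on the 2i ESC array, Wt1 on the S ESC array and Lrrn4 on both. Msln had 721.2 units in 2i ESCs, against 147.6 in S ESCs, and was 4.86-fold higher, number 27 of 10490 genes from the highest. It was the only member beyond 2-fold between the ESC arrays, where 2.78% of genes were higher in 2i ESCs and 2.55% lower, and its 2i ESC value lay between those of the 2n and 4n 2i MEFs. With the floor at the 75th percentile Msln was not compared and 0 members differed. Wt1 had 158.8 units in 2i ESCs, against 282.7 in S ESCs, where only the S ESC value passed the floor, and the log2 difference was -0.83. Lrrn4 had 396.8 units in 2i ESCs and 469.5 in S ESCs, which passed the floor on both arrays and lay within 2-fold of each other (log2 -0.24).

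The other 5 genes were below the floor on both ESC arrays and were not compared there. Upk3b had 110.0 units in 2i ESCs and 150.4 in S ESCs, and Upk1b 85.2 in 2i ESCs and 94.7 in S ESCs. Gpm6a had 51.2 units in 2i ESCs and 68.8 in S ESCs, and Cbr2 103.7 in 2i ESCs and 107.2 in S ESCs. Bnc1 had 79.4 units in 2i ESCs and 72.8 in S ESCs. The median log2 difference of the 8 between the ESC arrays was -0.20, beside -0.04 for all genes compared. The first median includes the 5 genes below the floor, while the second holds only genes past it. The number 15 stands in the titles of the 2i ESC and 2n 2i MEF samples, which thus differed in most members. Msln and Lrrn4 reached the floor on both of these arrays, and Upk3b, Upk1b, Wt1, Bnc1 and Cbr2 on the 2n 2i MEF array alone.

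Across the cell types, every member had a lower mean in ESCs than in MEFs, as did 47.5% of genes, and 5 of 8 by at least 2-fold (Upk1b, Bnc1, Upk3b, Cbr2 and Gpm6a), where 18.3% of 11856 genes were lower and 17.6% higher. The largest log2 difference of ESC minus MEF means was -3.76 for Upk1b and the smallest -0.14 for Lrrn4. No p is given for the members, since their levels in MEFs were used to choose them, and these counts are a description. Gpm6a passed the floor through the 4n array alone. Set against the control MEF array alone, only Upk1b and Bnc1 were at least 2-fold lower on both ESC arrays. Without the control MEF array 8 of 8 were at least 2-fold lower in ESCs, and without the 4n 2i MEF array 4 were, Gpm6a then being at -0.92. The first of these counts rests, among MEFs, only on the 2i MEF arrays, for which the genes were chosen. The sign itself rested on single arrays for Lrrn4 and Msln. Lrrn4 had a log2 difference of 0.57 without the 4n and 0.18 without the 2n 2i MEF array, and Msln 0.63 without the S ESC and 0.08 without the 4n 2i MEF array. Bnc1 had 79.4 units in 2i ESCs and 72.8 in S ESCs, against 1083 in control MEFs. Lrrn4, Wt1 and Cbr2 were in the opposite order, with both ESC arrays above the control MEF array. The excess in ESCs was at least 2-fold on both arrays for Lrrn4 only. The control MEF values of these genes lay below the floor, as did the Cbr2 values on both ESC arrays and the 2i ESC value of Wt1. The means of the MEF group therefore pool arrays that differ, and the order of arrays is the better description. For 7 genes it began with the 4n 2i MEFs, for 6 of these the 2n 2i MEFs came second, and for Msln the 2i ESCs did. Neighbours in these orders have no spread to be set against.

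The shape of the profile was compared by the distance between log2 profiles over the 5 arrays, each centred on its own mean (the root of the summed squared differences). Among the 21 pairs of members without Bnc1 this distance ran from 0.61 to 4.00, and in the 7 pairs with Bnc1 from 2.93 to 4.71. The closest pair was Upk3b and Cbr2, and the next was Gpm6a and Wt1 (1.04). Among 11430 named genes that reached the floor on any array, the gene nearest to Upk3b was Cthrc1 (0.52), a secreted protein of collagenous matrix, followed by Cbr2 (0.61) and Nrep (0.77). Those nearest to Upk1b were the retrotransposon-derived Rtl3 (0.45), the chemokine gene Cxcl12 (0.71) and the small proteoglycan gene Fmod (0.72). Msln was nearest to Cd200 (0.34), an immune-regulatory surface glycoprotein, the homeobox gene Pknox2 (0.67) and the protease gene Htra1 (0.80). Lrrn4 was nearest to Mest (0.30), an imprinted gene expressed from the paternal allele, to Aldh1a2 (0.59), which makes retinoic acid, and to the Wnt antagonist gene Sfrp4 (0.82).

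The genes nearest to Gpm6a were Mab21l2 (0.37), the homeobox gene Meox2 (0.49) and Tril (0.49). Wt1 was nearest to Gas2 (0.38), an actin-associated protein gene, to the Wnt potentiator gene Rspo1 (0.43) and to Igdcc4 (0.57). Cbr2 was nearest to Upk3b (0.61), Nrep (0.75) and the collagen gene Col14a1 (0.83). Bnc1 had other neighbours, Adamtsl5 (0.30), Galnt17 (0.33) and the monoacylglycerol lipase gene Mgll (0.37). With 5 arrays, of which 1 or 2 set most of the shape, many genes can share a profile.

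**Figure D3:**
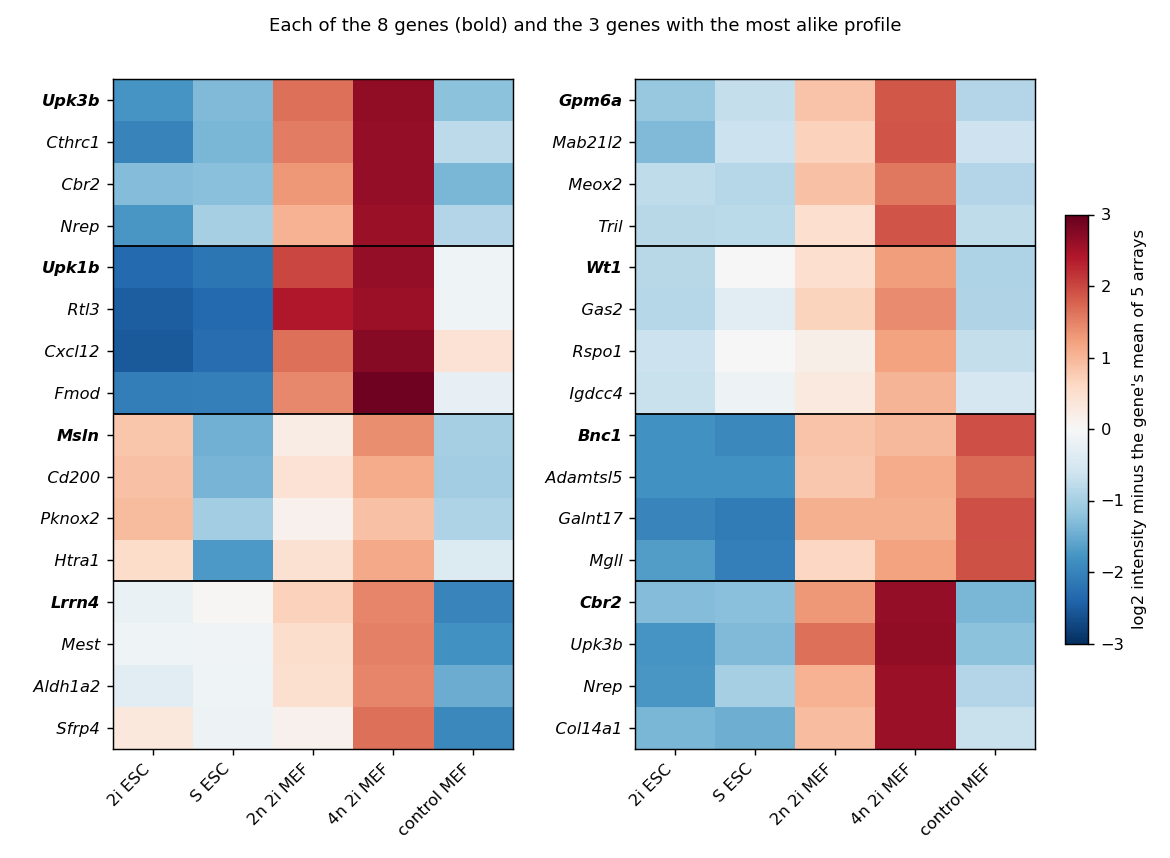
Log2 intensity minus the mean of the 5 arrays (colour scale from -3 to 3) for each of the 8 genes (bold) and, below it, the 3 genes with the smallest profile distance. The 4n 2i MEF column is the highest for 7 of the 8 genes, and the block of Bnc1 is highest in control MEFs.

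Other genes of the mesothelium, chosen as lists that hold none of the 8, did not share one pattern. Of 18 measured genes of the mesothelial surface and cytoskeleton, 9 passed the floor between 2n 2i and control MEFs, and 0 of these 9 differed by 2-fold. Among all genes compared, 1.49% were at least 2-fold higher in 2n and 0.434% lower, and in 4n 5.27% were higher and 3.45% lower. The keratin gene Krt7 had 335.9 units in 2n 2i MEFs and 606.3 in 4n 2i MEFs, against 188.3 in control MEFs. Its difference passed 2-fold in 4n (log2 1.68) and not in 2n (0.83). Between 4n 2i and control MEFs 2 of 9 were at least 2-fold higher, Krt7 and Nkain4 (log2 1.28), a gene for a partner of the sodium pump, and 1 was lower, the annexin gene Anxa8 (-2.18). Krt19, a keratin of simple epithelia and mesothelium, had log2 differences of -0.08 in 2n and -0.34 in 4n, and Pdpn, podoplanin, -0.83 in 2n and -0.73 in 4n. Muc16, the ligand of mesothelin, had 46.2 units in 2n 2i MEFs and 48.2 in 4n 2i MEFs, against 42.1 in control MEFs, all below the floor, as were Cdh1, E-cadherin, and Calb2, calretinin, on every MEF array.

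Regulators of the mesothelial and coelomic lining went in both directions. Of 12 past the floor among 16 measured, 3 were at least 2-fold higher in 2n 2i MEFs than in control MEFs and 0 lower, and in 4n 2i MEFs 4 were higher and 3 lower. Among all genes compared, 1.49% were higher in 2n and 0.434% lower, and in 4n 5.27% were higher and 3.45% lower. Aldh1a2 had 339.5 units in 2n 2i MEFs and 673.5 in 4n 2i MEFs, against 86.8 in control MEFs (log2 differences 1.96 and 2.94). It was below the floor in control MEFs, as Upk3b, Lrrn4, Wt1 and Cbr2 were. The zinc finger gene Gata6 had differences of 1.07 in 2n and 1.89 in 4n, Rspo1 0.90 in 2n and 1.92 in 4n, and the nuclear receptor gene Nr2f1 1.29 in 2n and 1.20 in 4n. The lower genes in 4n were the epicardial factor Tbx18 (-1.22) and, with smaller differences, the coelomic factors Osr1 (-1.06) and Lhx9 (-1.04). The lists' median differences over all measured genes, those below the floor included, were 0 in 2n and 0.04 in 4n for the surface genes. Of these 18 genes, 6 had values in 2n identical to those in control MEFs, and 4 in 4n. The median of 0 in 2n falls on such identical values and is not a measured absence of change. For the regulators the medians were 0.24 in 2n and 0.40 in 4n. All genes compared, which passed the floor, had medians of 0 and -0.01.

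**Figure D4:**
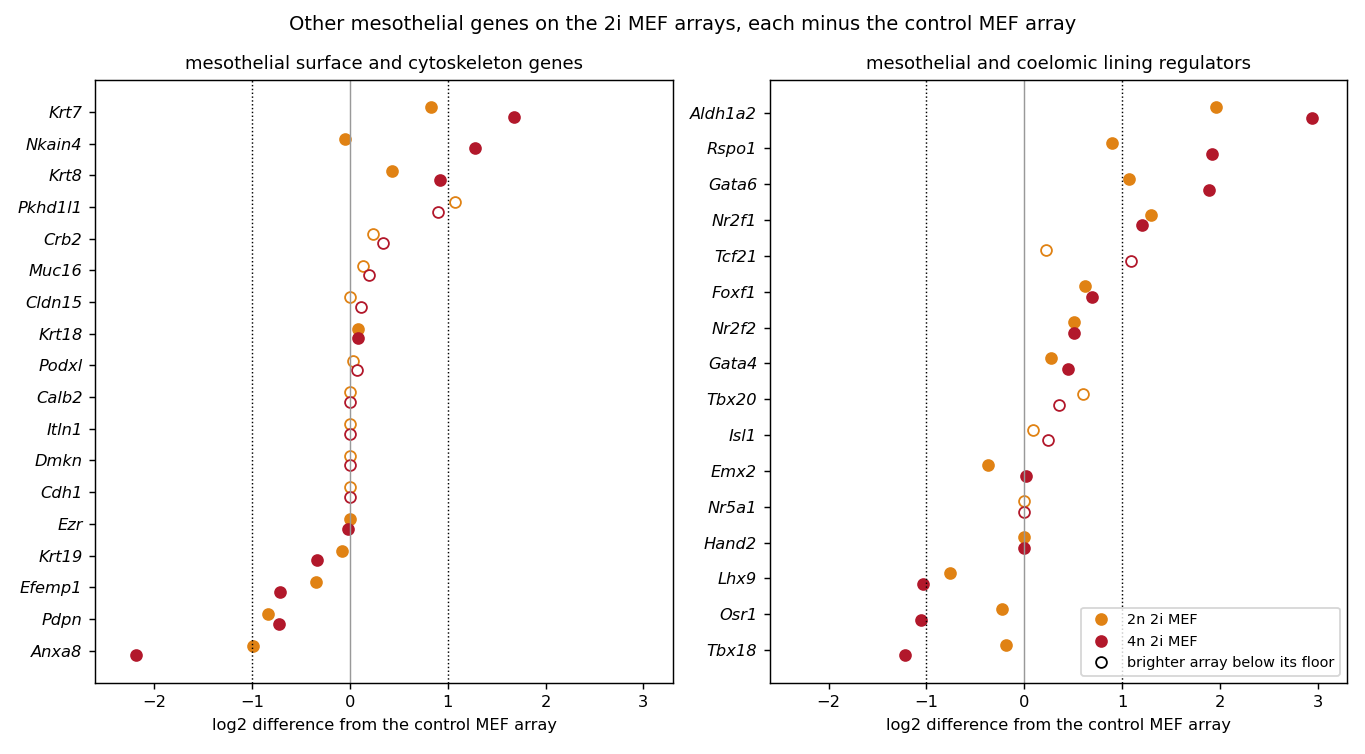
Log2 differences from the control MEF array for 18 mesothelial surface and cytoskeleton genes and 16 regulators, with 2n 2i MEFs in orange and 4n 2i MEFs in red (open circles, brighter array below its floor; dotted lines, 2-fold). Aldh1a2 has the largest excess in both, and Anxa8 the largest deficit in 4n.

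Genes described as targets of Wt1 lay on both sides between MEF arrays. Of 5 past the floor in 2n 2i against control MEFs, 1 was at least 2-fold higher, Aldh1a2, and 1 lower, the integrin gene Itga4 (-1.44), and in 4n 1 was higher and 2 lower, Itga4 (-1.24) and Wnt4 (-1.01). Of 8 close relatives of the members past the floor, 2 were at least 2-fold higher in 2n and 1 lower, and 2 were higher in 4n and 0 lower. For both lists the shares over all genes compared were 1.49% higher and 0.434% lower in 2n, and 5.27% higher and 3.45% lower in 4n. Gpm6b, the paralog of Gpm6a, had log2 differences of 1.01 in 2n and 2.00 in 4n from control MEFs. Bnc2, the paralog of Bnc1, was higher by 1.23 in both 2n and 4n, in the direction opposite to Bnc1. Lrrn4cl, whose product resembles Lrrn4, had -1.05 in 2n and -0.97 in 4n. The urothelial uroplakin genes Upk1a, Upk2 and Upk3a were below the floor on every MEF array.

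Lists of the other tissues that express single members were, apart from the neuronal one, mostly below the floor in MEFs. None of 8 urothelial genes and none of 6 airway club cell genes reached the floor on any MEF array. Of 6 basal epidermal genes 1 did on each 2i MEF array, the keratin gene Krt14, with 274.6 units in 2n 2i MEFs and 583.8 in 4n 2i MEFs, against 142.1 in control MEFs. Of 4 measured podocyte genes 1 did on each MEF array, Synpo, which was 1.20 higher in 4n 2i than in control MEFs on the log2 scale. Neuronal genes (4 of 7 past the floor) had 0 beyond 2-fold in 2n, and in 4n 1 higher, Map2, and 1 lower, Tubb3. Of 10 simple epithelial genes 3 passed the floor, the keratins Krt8, Krt18 and Krt19, and 0 differed by 2-fold in either 2i MEF. All 6 smooth muscle genes passed the floor, and 1 was beyond 2-fold, the intermediate filament gene Des, with 737.9 units in 2n 2i MEFs and 1339 in 4n 2i MEFs, against 96.3 in control MEFs. Of 6 endothelial genes 2 passed the floor in 2n, and 1 was higher, the sialomucin gene Emcn, with 362.1 units in 2n 2i MEFs and 178.6 in 4n 2i MEFs, against 58.9 in control MEFs. In 4n only 1 endothelial gene passed the floor, and it lay within 2-fold, while Emcn was below the floor there and was not compared. Among all genes compared, 1.49% were at least 2-fold higher in 2n and 0.434% lower, and in 4n 5.27% were higher and 3.45% lower.

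The listed genes were compared between cell types with limma on 2 ESC and 3 MEF arrays, with p adjusted over 11856 genes. The lists hold none of the members, but they too were chosen with earlier results of these data known. Their adjusted p values and counts are therefore a description and not an independent test. With thresholds of 0.05 for the adjusted p and 2-fold for the difference, 16.6% of all genes were higher in ESCs and 16.3% lower. Among 12 mesothelial surface genes tested 3 were higher in ESCs and 4 lower. Cdh1 was higher, with 6027 units in 2i ESCs and 6133 in S ESCs, against 90.6 on each MEF array (log2 difference 6.05), as were Podxl (3.23) and Ezr (1.18). Efemp1, fibulin 3, was lower, by a log2 difference of -4.73 (limma adjusted p = 0.000453), as were Anxa8, Krt19 and Pdpn. Among 12 regulators 0 were higher and 7 lower, led by Osr1 (-4.65), Emx2 (-3.47) and Nr2f2 (-3.44), with Gata6 (-1.50, adjusted p = 0.090 in limma) and Aldh1a2 (-0.37, adjusted p = 0.747 in limma) not past the threshold. Over all 15 lists, 87 genes were tested, 23 were higher and 35 lower in ESCs, and without the 2i ESC array 25 were higher and 23 lower. Of these 87, 23 had identical values on 2 or 3 MEF arrays, Cdh1, Ezr and Nr2f2 among them, so that part of their spread was not measured. The spread in this fit is that between conditions, and nothing in the labels says that the samples came from separate cultures.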

How the data were processed

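Per the labels' protocols, total RNA of 5 samples was biotin-labelled with a whole-transcript kit for mouse arrays. The table that the authors deposited gives a linear intensity for each of 28853 probe sets, with column medians of 170.2 to 192.0 units. Background correction, summarisation and normalization of these intensity values are not given in the sources used here. Arrays have no sequencing depth, and their number (1 per group) limits the precision.

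Probe sets with 1 gene symbol (21789) were named from the platform table and updated through Entrez Gene numbers to RefSeq, assembly GRCm38.p6 (21698 matched). Where a gene had several probe sets (999 genes) the brightest was used. Deposited intensities were analysed as log2(value + 1), with a threshold of 2-fold. ESCs and MEFs were compared with limma (lmFit, eBayes, Benjamini-Hochberg). In a test on simulated data of 11856 genes, the fit recovered 57 of 100 genes given a log2 change of 1.5 and 87 of 100 given one of 3, with 5 false calls.

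The members, the 15 lists (123 genes, 119 measured) and the rule for named genes were chosen with earlier results of these data known. Named were all members, up to 4 genes per list and comparison, and the 3 nearest genes per member. Calb2, Cd14, Ezr, Muc16, Ptprc and Upk3a, outside that rule, were named after their values were seen. Upstream sequences and their motifs are from RefSeq. Alternatives were other floors, quantile normalization, means of probe sets, a pseudocount of 16, 3-fold, a trended prior and leaving out arrays. Software was limma 3.58.1 in R 4.3.3, and pandas 2.3.3, numpy 2.4.6 and matplotlib 3.10.9 in Python 3.11.15.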

Additional observations from a re-analysis of the deposited data

How the results depend on the processing

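The 120 alternative values of the members' log2 differences and the 40 of their levels kept their direction where beyond 2-fold and moved by less than 1.5-fold. Quantile normalization moved a difference by at most 0.12, and a pseudocount of 16 by at most 0.26. The means of probe sets could not move a difference or count of members, since each member has exactly 1 probe set. Their values are among the 120 and the 35 and say nothing on stability. Counts of members beyond 2-fold changed by over 1.5 times in 5 of 35 settings. In 2n 2i against control MEFs 7 members became 3 with the floor at the 75th percentile and 4 at 3-fold. In 4n against 2n 2i MEFs 3 became 0 at 3-fold, and in 2i against S ESCs 1 became 0 with the higher floor. These settings pass fewer genes by their construction. In ESCs against MEFs 5 became 4 to 8 when arrays were left out in turn, with 8 without the control MEF array. That setting leaves only the 2i MEF arrays, for which the genes were chosen. The 58 listed genes called by limma stayed between 40 and 60 over 12 alternatives. When an array was left out and 1 ESC array remained, that array was assumed to vary like the MEF arrays. No paired analysis was possible because each group has 1 array. Values below the floor limit what a fold means.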
